A study of Mus musculus with 12 samples.

Results

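The RheoSwitch ligand (RSL) response that NIH 3T3 fibroblasts carrying an inducible Ier2 construct did not share with their parental cells was measured as 1 contrast over all 12 arrays of the series: the log2 change from DMSO to RSL in the inducible cells minus the same change in the parental cells. NIH 3T3 is an established mouse fibroblast line. The inducible cells, 3T3-ind-IER2 #11, are 1 clone of these cells that carries the RheoSwitch receptor and activator together with mouse Ier2 under the RSL-responsive promoter. The parental cells are labelled NIH 3T3 with no construct named. The culture text given for every array names G418 and hygromycin, which select for the plasmids, so whether the parental cells grew in them is not settled by the labels. Each cell line received RSL at 200 nM or a corresponding volume of DMSO, the solvent, and was harvested after 24 h, with 3 arrays per group and 4 groups. The contrast was taken across 16475 probe sets, 1 per gene by Entrez identifier, of which 109 (0.662%) passed the test after correction, and these 109 are the genes described here. Because the inducible cells are a single clone, the presence of the receptor, the presence of the construct and any other property of that clone cannot be told apart in this difference.

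Ier2 belongs to the immediate-early genes, which growth factors and serum switch on within minutes without new protein synthesis. Signals through the kinase ERK and through the serum response factor SRF reach these genes, and SRF binds a DNA element called the CArG box. Many of the proteins they encode are transcription factors, among them Egr1 and the Fos and Jun families that make up AP-1, while others, such as the phosphatase Dusp5, act back on ERK and limit the signal. In the RheoSwitch system a hybrid nuclear receptor and its partner, which is derived from the retinoid X receptor RXR, form the ligand-bound pair that drives the construct.

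The promoters of 4 genes with lower differences are shown because they carry elements that these pathways use. They come from RefSeq on build GRCm38.p6, each covers the 150 bases before an annotated start on the plus strand, and the capitals mark CArG boxes in Dusp5 (chr19:53528995-53529144) and Egr2 (chr10:67537719-67537868) and AP-1 elements, TGANTCA, in Mmp3 (chr9:7445672-7445821) and Mmp10 (chr9:7502192-7502341). In Dusp5 a pair of adjacent CArG boxes began 82 and 72 bases before the start. The Egr2 box shown began 72 bases before the start, and the AP-1 elements began 46 bases before the start of Mmp3 and 63 before that of Mmp10.
Dusp5: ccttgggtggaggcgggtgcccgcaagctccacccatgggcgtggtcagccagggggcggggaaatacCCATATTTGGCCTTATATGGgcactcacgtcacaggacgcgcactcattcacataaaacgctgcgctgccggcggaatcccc
Egr2: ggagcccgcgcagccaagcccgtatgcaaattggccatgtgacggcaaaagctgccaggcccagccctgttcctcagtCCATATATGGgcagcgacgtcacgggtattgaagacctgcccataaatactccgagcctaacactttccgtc
Mmp3: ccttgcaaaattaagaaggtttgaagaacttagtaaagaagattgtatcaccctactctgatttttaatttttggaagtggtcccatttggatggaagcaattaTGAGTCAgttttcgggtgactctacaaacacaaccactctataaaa
Mmp10: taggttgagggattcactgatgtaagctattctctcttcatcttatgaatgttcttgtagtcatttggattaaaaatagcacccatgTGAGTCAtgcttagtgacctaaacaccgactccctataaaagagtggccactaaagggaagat
Of the 106 genes among the 109 that have a symbol, 81 had a promoter in the RefSeq table, 32 with a lower and 49 with a higher difference. Egr1, Ier2, Klf10 and Fosl1 had no promoter there and were not searched, so the shares below leave them out. A window from 250 bases before to 50 after each start was searched on both strands. A CArG box was found in 4 of the 32 genes with a lower difference (12.5%), namely Dusp5, Egr2, Zfp36 and Myadm, in 0 of the 49 with a higher difference, and in 1.81% of the 27025 genes of the table. For AP-1, TGANTCA, the shares were 12.5%, 12.2% and 8.97%. For the EGR element GCGNGGGCG, which can overlap other GC-rich elements, they were 12.5%, 18.4% and 6.27%. For the E-box CACGTG they were 9.38%, 10.2% and 8.09%, and for the CRE TGACGTCA 3.13%, 2.04% and 2.03%. A match describes the letters of the window and was not tested as a site of binding.

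On the arrays labelled RSL the gene of the construct went against its label. Ier2 read 8.60, 8.61 and 8.53 log2 units on the parental DMSO arrays, 8.82, 8.74 and 8.67 on the parental RSL arrays, 9.07, 9.04 and 8.96 on the inducible DMSO arrays and 8.5, 8.48 and 8.66 on the inducible arrays labelled RSL. All 3 inducible arrays labelled RSL lay below all 3 inducible DMSO arrays, whereas the parental RSL arrays lay above the parental DMSO arrays. Ier2 fell by 0.47 in the inducible cells (adjusted p = 4.64e-05 in limma), its parental change was 0.17 (adjusted p = 0.366), and the difference of −0.64 (standard error 0.07) passed the test with an adjusted p of 0.000262. The sources used here do not say if this probe set also detects mRNA made from the construct, and every inducible effect below is given in the direction of the labels. With the inducible labels exchanged, the difference would be 0.31 for Ier2, 0.40 for Egr1 and −0.35 for Ogn. As labelled, these are −0.64, −1.97 and 0.70. Each of these signs would turn, as would those of all 98 genes whose inducible change was larger in size than the parental one. The sign would stay in the 11 genes whose parental change was the larger. Ccn1 is 1 of these, with changes of 0.60 in parental and −0.09 in inducible cells. The order of the genes below, and the direction of most, thus hold for the labels as given.

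Of the 109 genes, 59 (0.358% of the probe sets) had a higher and 50 (0.303%) a lower RSL effect in the inducible cells than in the parental cells. Without correction, 1494 probe sets (9.07%) had a p under the threshold, 724 higher and 770 lower. The differences were small for most genes: the median size was 0.31 on the log2 scale, a 1.24-fold ratio between the fold changes of the cell lines, and 12 genes exceeded 0.5, 6 in each direction. The range ran from 0.21 to 1.97. The change in the inducible cells was the larger one in 98 genes, and the parental change in 11. In 84 of the 109 the changes ran in opposite directions, against 7530 of all 16475 probe sets. The 109 were chosen for a difference between the changes, which favours opposite directions, so this count only describes them.

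Tested within each cell line by the same model, 99 of the 109 changed in the inducible cells, in which 418 probe sets (2.54%) were called, and 3 changed in the parental cells, in which 5 (0.0303%) were called. These 3 were Ccn1, Mmp3 and Klf10, all of which rose with RSL in the parental cells. Mmp3 changed in both lines, and 8 genes passed in neither line although their difference passed. The RSL and DMSO arrays of the inducible cells did not overlap for 105 of the 109, against 18.1% of all probe sets, and those of the parental cells did not overlap for 49, against 13.3%. These shares describe genes chosen on the same arrays.

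**Figure D1:**
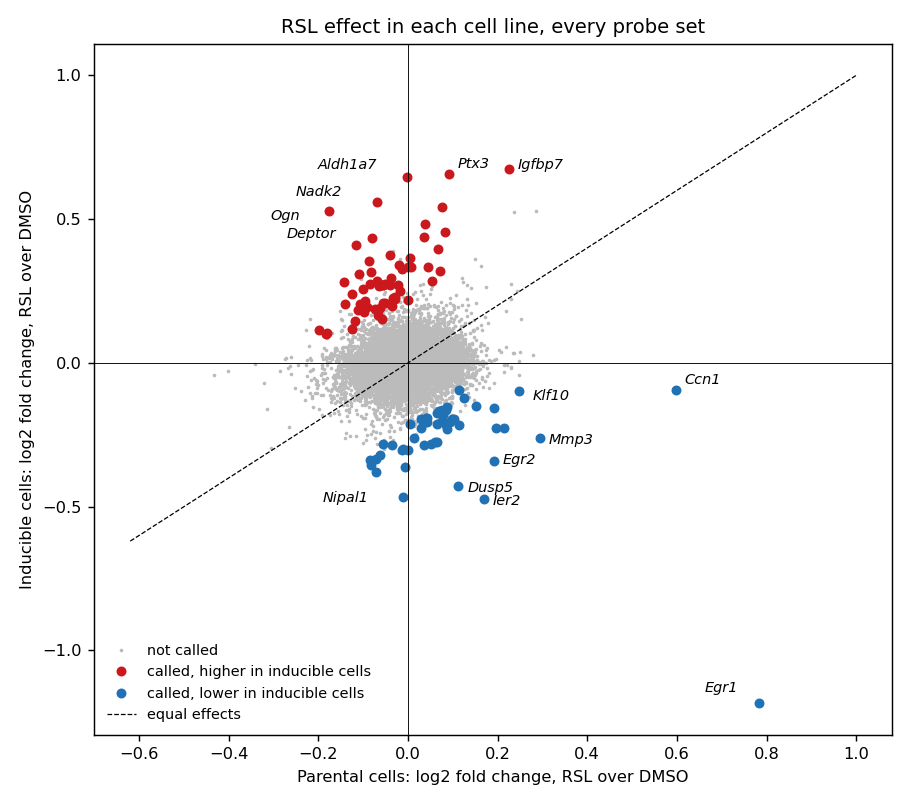
Each point is a probe set, placed by its log2 fold change (RSL over DMSO) in parental cells on the x axis and in inducible cells on the y axis, with the 59 genes called higher in red, the 50 called lower in blue and the dashed line marking equal effects. Egr1 lies alone at the lower right (0.78 and −1.18), Ccn1 lies far right near the zero line (0.60 and −0.09), and most called genes lie close to zero on the parental axis.

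The number of genes called depended on single arrays. It was 56 without inducible DMSO array 1 or inducible DMSO array 2, 58 without inducible RSL array 2, 60 without parental DMSO array 2, 70 without parental DMSO array 3, 71 without parental RSL array 1 and 72 without inducible RSL array 1, and it was 144 without inducible RSL array 3. Parental DMSO array 1 and inducible RSL array 3 took the lowest weights when arrays were weighted by their fit, 0.449 and 0.579, and without both of them 289 probe sets passed, 194 higher and 95 lower. All 109 genes kept their direction under each of these settings, and 50 of them passed whichever 1 array was left out. The 109 were chosen for their difference on these same arrays, so a kept direction is no separate support. Over the 12 arrays the median log2 value lay between 7.03 and 7.06 and arrays of 1 group correlated at 0.998 or above. All 11 fibroblast markers measured read above the median of every array, with group ranges of their mean level between 10.96 and 11.30, while 5 of 10 epithelial, 5 of 10 endothelial and 4 of 10 macrophage markers read below the first quartile of every array. The macrophage marker Csf1r and the endothelial marker Eng read above the median of every array, and no epithelial marker did. No marker of these 4 cell types was called for the difference. Of the 11 fibroblast markers, 9 lay above 0 and 2 below, with a median difference of 0.11. At an unadjusted p under the threshold, 4 of them were higher and 0 lower. The medians of the macrophage, epithelial and endothelial markers were 0.03, −0.04 and −0.04.

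The list of immediate-early transcription factors and related immediate-early genes included Egr1, the largest difference among the 109 genes. Of 28 measured, 8 were called lower, 0 were called higher, and 26 lay below 0, with a median difference of −0.18 against −0.00 over all probe sets tested. The list was drawn up with results of these arrays known and is not independent evidence of its direction. The 8 were Egr1, Ier2, Egr2, Klf10, Fosl1, Ier5, Zfp36 and Jun. Not all of these are transcription factors, since Zfp36 acts on mRNAs, and Ier2 is the gene of the construct. Without inducible DMSO array 1 the count was 5, and it lay between 6 and 8 without any other array.

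Egr1, a zinc finger transcription factor of the growth factor response, read 8.87, 8.60 and 8.47 on the parental DMSO arrays, 9.25, 9.45 and 9.60 on the parental RSL arrays, 10.59, 10.53 and 10.09 on the inducible DMSO arrays and 8.98, 9.12 and 9.57 on the inducible RSL arrays. Neither pair of groups overlapped, and the inducible DMSO arrays were the highest of all. Egr1 fell by 1.18 in the inducible cells (adjusted p = 0.000198), its parental change of 0.78 did not pass (adjusted p = 0.0870), and the difference was −1.97 (standard error 0.20, 95% interval −2.40 to −1.53, adjusted p = 0.000262 in limma), a 3.91-fold ratio. The level in inducible cells stood 1.76 above that in parental cells under DMSO and 0.21 below it under RSL (−0.21).

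Egr2, a relative of Egr1 that binds a like element and whose CArG box is printed above, read 6.14, 6.19 and 6.19 on the parental DMSO arrays, 6.35, 6.30 and 6.44 on the parental RSL arrays, 6.60, 6.57 and 6.25 on the inducible DMSO arrays and 6.08, 6.14 and 6.18 on the inducible RSL arrays. Its values were low, near the first quartile of the arrays, which lay between 6.23 and 6.30, and inducible DMSO array 3 lay apart from the other 2 of its group. Egr2 fell by 0.34 in the inducible cells and differed by −0.53 (standard error 0.10, adjusted p = 0.0124).

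Klf10, a zinc finger repressor that TGF-beta induces, took most of its difference from the parental cells. It read 9.13, 9.17 and 9.19 on the parental DMSO arrays, 9.34, 9.40 and 9.50 on the parental RSL arrays, 9.11, 9.17 and 9.12 on the inducible DMSO arrays and 9.0, 9.05 and 9.04 on the inducible RSL arrays. It rose by 0.25 in the parental cells (adjusted p = 0.0392), its inducible change of −0.10 did not pass, and the difference was −0.35 (standard error 0.06, adjusted p = 0.00633). The AP-1 subunits Fosl1 (−0.33, adjusted p = 0.00649) and Jun (−0.27, adjusted p = 0.0197) both fell in the inducible cells, by 0.27 and 0.36. Jun had a parental change of the same sign, −0.08, and its call ended without any 1 of 6 arrays (adjusted p of up to 0.0766). Ier5, a relative of Ier2, differed by −0.33 and Zfp36, which speeds the decay of cytokine mRNAs, by −0.28. The Ier5 call ended without inducible DMSO array 1 (adjusted p = 0.0559) and that of Zfp36 without any 1 of 10 arrays (adjusted p of up to 0.132). Among members that did not pass, Junb differed by −0.22 (adjusted p = 0.0957), Fos by −0.21 (0.501) and Myc by −0.02 (0.952), and Nr4a2, at 0.15, was the most positive of the list.

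**Figure D2:**
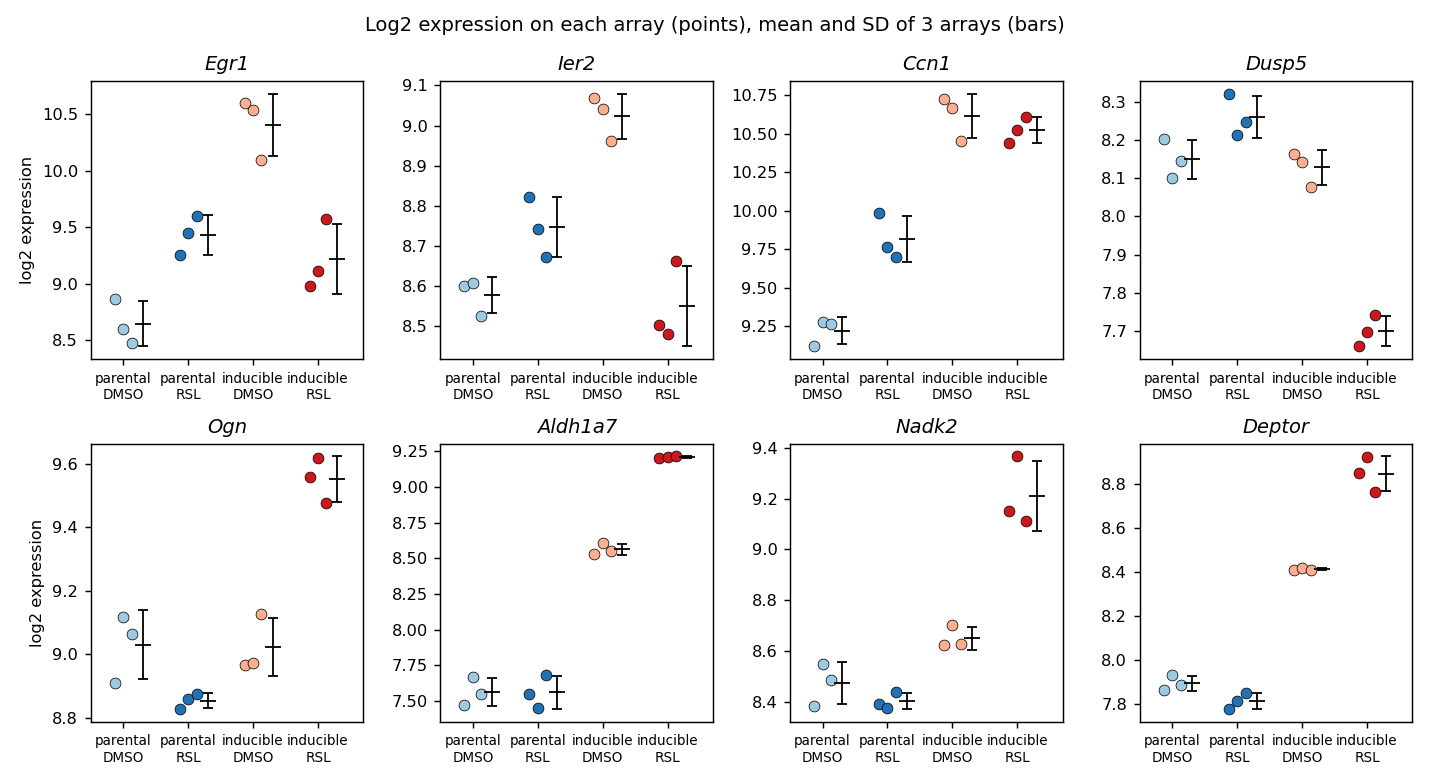
Log2 expression (y axis, a separate scale for each gene) of 8 genes on each array, with points for the 3 arrays of each group and bars for their mean and SD. Egr1, Ier2 and Dusp5 are lower on the inducible RSL arrays than on the inducible DMSO arrays, Ccn1 differs between the parental groups and overlaps between the inducible groups, and Ogn, Aldh1a7, Nadk2 and Deptor are higher on the inducible RSL arrays than on the inducible DMSO arrays, with parental changes from −0.18 to 0.00.

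ERK feedback inhibitors and other ERK target genes were lower in part. Of 17 measured, 2 were called lower and 1 higher, 13 lay below 0, and the median was −0.09. Dusp5, a nuclear phosphatase that acts on ERK, read 8.20, 8.10 and 8.15 on the parental DMSO arrays, 8.32, 8.21 and 8.25 on the parental RSL arrays, 8.16, 8.14 and 8.08 on the inducible DMSO arrays and 7.66, 7.70 and 7.74 on the inducible RSL arrays. The inducible RSL arrays stood below all others, which lay close together. Dusp5 fell by 0.43 in the inducible cells (adjusted p = 2.16e-05), and the difference was −0.54 (standard error 0.06, adjusted p = 0.000262). Errfi1, an inhibitor of the EGF receptor, differed by −0.44 (adjusted p = 0.00168), with changes of −0.23 in inducible and 0.22 in parental cells. Its arrays read 10.01, 10.04 and 9.95 for parental DMSO, 10.29, 10.21 and 10.14 for parental RSL, 10.61, 10.68 and 10.57 for inducible DMSO and 10.35, 10.40 and 10.43 for inducible RSL, so that neither pair overlapped and the lines moved towards each other.

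Dusp1, a phosphatase that acts mainly on the stress kinases p38 and JNK, went the other way, with a difference of 0.33 (standard error 0.07, adjusted p = 0.0405). It rose by 0.40 in the inducible cells. This call ended without any 1 of 9 arrays, with an adjusted p of up to 0.118. Spred3 (−0.24, adjusted p = 0.0563) and Dusp6 (−0.21, adjusted p = 0.10), also ERK inhibitors, did not pass.

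The secreted growth factor Hbegf, a ligand of the EGF receptor, was the only one of 22 secreted growth factors called. It read 8.22, 8.21 and 8.16 on the parental DMSO arrays, 8.30, 8.29 and 8.29 on the parental RSL arrays, 7.85, 7.83 and 7.88 on the inducible DMSO arrays and 7.63, 7.60 and 7.74 on the inducible RSL arrays. Neither pair of groups overlapped, and the parental cells read higher throughout. The difference was −0.29 (standard error 0.05, adjusted p = 0.0108). Ccn1, a matrix-bound signalling protein and a known immediate-early gene, was called lower among 13 measured CCN and other matricellular genes, with no other called. It read 9.12, 9.28 and 9.27 on the parental DMSO arrays, 9.99, 9.76 and 9.70 on the parental RSL arrays, 10.73, 10.67 and 10.46 on the inducible DMSO arrays and 10.44, 10.52 and 10.61 on the inducible RSL arrays. The inducible groups overlapped, and the parental groups did not. Ccn1 rose by 0.60 in the parental cells (adjusted p = 0.00944), its inducible change was −0.09 (adjusted p = 0.748), and the difference was −0.69 (standard error 0.11, adjusted p = 0.00488). Its relative Ccn2 did not pass for the difference (0.29, adjusted p = 0.114).

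Genes of matrix breakdown moved in both directions. Of 21 matrix proteases and inhibitors measured, 3 were called lower (Mmp3, Mmp10 and Plaur) and 2 higher (Adamts1 and Adamts5), with a median of −0.03. Mmp3, stromelysin-1, read 9.0, 9.16 and 9.12 on the parental DMSO arrays, 9.41, 9.36 and 9.40 on the parental RSL arrays, 10.15, 10.27 and 10.23 on the inducible DMSO arrays and 9.92, 9.97 and 9.97 on the inducible RSL arrays. It rose in the parental cells by 0.29 (adjusted p = 0.0209) and fell in the inducible cells by 0.26 (adjusted p = 0.00283), with no overlap in either line. The difference was −0.56 (standard error 0.06, adjusted p = 0.000262).

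Mmp10, stromelysin-2, read 7.45, 7.49 and 7.48 on the parental DMSO arrays, 7.74, 7.66 and 7.58 on the parental RSL arrays, 7.36, 7.42 and 7.32 on the inducible DMSO arrays and 7.18, 7.18 and 7.27 on the inducible RSL arrays. Neither pair overlapped, although neither line's own change passed (0.19 and −0.16). The difference was −0.35 (standard error 0.06, adjusted p = 0.00936). Plaur, the urokinase receptor, differed by −0.30 (adjusted p = 0.0365), a call that ended without any 1 of 10 arrays (adjusted p of up to 0.112). On chromosome 9, in the gene order of RefSeq on GRCm38.p6, the Mmp genes measured around Mmp3 and Mmp10 were Mmp13, Mmp12, Mmp1b, Mmp1a, Mmp8 and Mmp20, with differences between −0.04 and 0.05 and none called.

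The neighbours Adamts1 and Adamts5 on chromosome 16, metalloproteases that cut proteoglycans, were both called higher. Adamts1 read 8.72, 8.72 and 8.60 on the parental DMSO arrays, 8.48, 8.45 and 8.68 on the parental RSL arrays, 9.06, 9.02 and 8.99 on the inducible DMSO arrays and 9.34, 9.32 and 9.24 on the inducible RSL arrays. Only the inducible groups were apart. It differed by 0.42 (adjusted p = 0.0112) and Adamts5 by 0.33 (adjusted p = 0.0108), while the 6 measured genes around them lay between −0.04 and 0.09 and were not called.

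**Figure D3:**
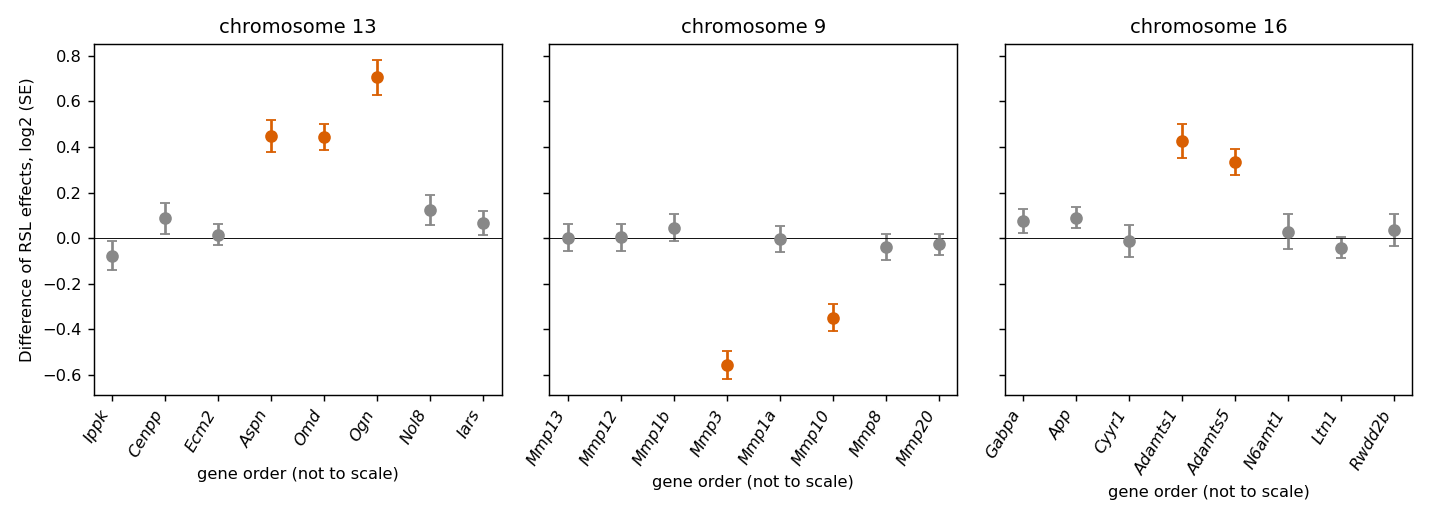
Difference of the RSL effects on the log2 scale (y axis, with standard error) for genes in their order along 3 chromosomes (x axis, not to scale), with called genes in orange. Ogn, Omd and Aspn stand at 0.70, 0.44 and 0.45 between neighbours from −0.08 to 0.12, Mmp3 and Mmp10 stand at −0.56 and −0.35 among other Mmp genes near 0, and Adamts1 and Adamts5 stand at 0.42 and 0.33.

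Ogn, Omd and Aspn, which encode the small leucine-rich proteoglycans osteoglycin, osteomodulin and asporin, lie next to each other on chromosome 13 and were all called higher. Of 11 small leucine-rich proteoglycans measured these were the 3 called, and the other 8, decorin (Dcn, −0.16) and lumican (Lum, −0.02) among them, lay between −0.16 and 0.01. Ogn had the highest difference of all 109 genes. It read 8.91, 9.12 and 9.06 on the parental DMSO arrays, 8.83, 8.86 and 8.87 on the parental RSL arrays, 8.97, 8.97 and 9.13 on the inducible DMSO arrays and 9.56, 9.62 and 9.48 on the inducible RSL arrays. The DMSO groups of the cell lines shared a range, and the inducible RSL arrays stood above every other array. Ogn rose by 0.53 in the inducible cells (adjusted p = 3.71e-05), its parental change was −0.18 (adjusted p = 0.366), and the difference was 0.70 (standard error 0.08, adjusted p = 0.000262), a 1.63-fold ratio.

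Omd read 6.90, 7.02 and 7.0 on the parental DMSO arrays, 6.85, 6.88 and 6.94 on the parental RSL arrays, 7.08, 7.15 and 7.05 on the inducible DMSO arrays and 7.47, 7.47 and 7.41 on the inducible RSL arrays. It differed by 0.44 (standard error 0.06, adjusted p = 0.00110). Aspn read 5.75, 5.62 and 5.63 on the parental DMSO arrays, 5.70, 5.75 and 5.67 on the parental RSL arrays, 5.80, 5.90 and 5.90 on the inducible DMSO arrays and 6.36, 6.44 and 6.24 on the inducible RSL arrays. Its values in 3 of the 4 groups, all but inducible RSL, lay below the first quartile of the arrays, and its difference was 0.45 (standard error 0.07, adjusted p = 0.00548). In both genes the inducible RSL arrays stood above all the others. The flanking genes on this stretch, Ippk, Cenpp, Ecm2, Nol8 and Iars, lay between −0.08 and 0.12 and were not called. Of the 27 collagens and matrix glycoproteins measured, none was called in limma, 4 higher and 1 lower at an unadjusted p under the threshold, with a median of 0.02. Mgp, matrix Gla protein, an inhibitor of calcification, differed by 0.40 (adjusted p = 0.00493), with inducible arrays at 6.60, 6.50 and 6.62 under DMSO and 7.03, 6.95 and 7.05 under RSL and parental arrays from 7.06 to 7.21.

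Of 31 cytokines, chemokines and related secreted proteins measured, 4 were called higher (Ptx3, Ccl9, Il6 and Ccl8) and 0 lower, while the median over the list was −0.01. Ptx3, a pattern recognition protein of the pentraxin family, read 7.09, 7.23 and 7.12 on the parental DMSO arrays, 7.20, 7.23 and 7.29 on the parental RSL arrays, 9.14, 9.01 and 8.91 on the inducible DMSO arrays and 9.75, 9.78 and 9.51 on the inducible RSL arrays. The parental groups overlapped far below the inducible ones. Ptx3 rose by 0.66 in the inducible cells (adjusted p = 3.71e-05) and differed by 0.57 (standard error 0.09, adjusted p = 0.00821).

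Il6, interleukin 6, read 5.84, 5.94 and 5.79 on the parental DMSO arrays, 5.87, 5.84 and 5.87 on the parental RSL arrays, 6.81, 6.73 and 6.65 on the inducible DMSO arrays and 7.05, 7.14 and 7.0 on the inducible RSL arrays. Its parental values were below the first quartile of the arrays. The difference was 0.33 (standard error 0.07, adjusted p = 0.0304) and its call ended without any 1 of 8 arrays, with an adjusted p of up to 0.101. The chemokine genes Ccl8 (0.33, adjusted p = 0.0485) and Ccl9 (0.22, adjusted p = 0.0272) likewise read close to even between the parental groups, with changes of 0.01 and −0.00. Their calls ended without any 1 of 10 and of 7 arrays, with adjusted p-values of up to 0.148 and 0.102.

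Of 29 interferon-stimulated and MHC class I genes, 3 were called higher and 0 lower, with 19 above 0, 10 below and a median of 0.09. At an unadjusted p under the threshold, 11 were higher and 0 lower. Tapbp, tapasin, which loads peptides onto MHC class I, read 8.82, 8.80 and 8.73 on the parental DMSO arrays, 8.71, 8.77 and 8.71 on the parental RSL arrays, 8.56, 8.56 and 8.58 on the inducible DMSO arrays and 8.87, 8.85 and 8.81 on the inducible RSL arrays. The parental groups overlapped, and the mean of the inducible cells moved from below both parental means to above them, with a difference of 0.33 (adjusted p = 0.00372). The interferon-induced GTPase genes Gbp2 and Irgm1 differed by 0.36 (adjusted p = 0.00870) and 0.29 (adjusted p = 0.00729). None of 21 NF-kB subunits and feedback inhibitors was called in limma, 1 higher and 1 lower at an unadjusted p under the threshold.

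Single enzymes of aldehyde and NAD metabolism were among the largest positive differences. Aldh1a7, a cytosolic aldehyde dehydrogenase, read 7.47, 7.67 and 7.55 on the parental DMSO arrays, 7.55, 7.45 and 7.68 on the parental RSL arrays, 8.53, 8.61 and 8.55 on the inducible DMSO arrays and 9.20, 9.21 and 9.22 on the inducible RSL arrays. The parental groups spanned the same range, and the inducible RSL arrays differed from one another by 0.01 in SD. Aldh1a7 rose by 0.64 in the inducible cells (adjusted p = 9.05e-06), the parental change was −0.00, and the difference was 0.65 (standard error 0.08, adjusted p = 0.000419). Aldh1a7 shares much of its sequence with Aldh1a1, so its probe set may read both. It was the only one of 15 aldehyde dehydrogenases and related enzymes called.

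Nadk2, the mitochondrial NAD kinase, read 8.39, 8.55 and 8.48 on the parental DMSO arrays, 8.39, 8.38 and 8.44 on the parental RSL arrays, 8.62, 8.70 and 8.63 on the inducible DMSO arrays and 9.15, 9.37 and 9.11 on the inducible RSL arrays. The inducible RSL arrays stood above all others. The difference was 0.63 (standard error 0.08, adjusted p = 0.000934), and no other of 14 genes of NAD synthesis and NAD kinases was called. Further enzymes among the largest differences were Akr1c14, an aldo-keto reductase of steroids (0.53, adjusted p = 0.00870), and Inmt, a methyltransferase of amines (0.42, adjusted p = 0.000530). Dhrs3, which reduces retinaldehyde (0.31, adjusted p = 0.0121), and Mylip, a ubiquitin ligase that degrades the LDL receptor (0.42, adjusted p = 0.0117), were the 2 called among 23 target genes of RXR partner receptors, with a median of 0.02. The Dhrs3 call ended without inducible DMSO array 2 (adjusted p = 0.0516). Of 23 genes of the NRF2 and xenobiotic response, Ephx1 (0.28) and Gstm1 (0.23) were called higher, their calls ending without any 1 of 5 and of 10 arrays, with adjusted p-values of up to 0.0734 and 0.137.

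Cholesterol synthesis genes lay above 0 as a list but passed the test only once. Of 17 measured, 16 had a positive difference, 10 of them with an unadjusted p under the threshold, and the median was 0.13 against −0.00 over all probe sets. Dhcr7, the last enzyme of the pathway, was called (0.36, standard error 0.07, adjusted p = 0.0233), with arrays at 8.06, 8.11 and 7.97 for parental DMSO, 8.12, 7.91 and 8.05 for parental RSL, 8.51, 8.45 and 8.52 for inducible DMSO and 8.87, 8.86 and 8.77 for inducible RSL. The inducible groups did not overlap and the parental groups did. The call ended without any 1 of 5 arrays, with an adjusted p of up to 0.0886. Ebp, an isomerase of the same pathway, followed at 0.24 (adjusted p = 0.0665). Of 19 genes of fatty acid synthesis and desaturation, none was called in limma, with 6 higher and 0 lower at an unadjusted p under the threshold, a median of 0.10 and Acly, which makes cytosolic acetyl-CoA, nearest to the threshold (0.21, adjusted p = 0.0660). Fat cell genes and lipid storage had 0 of 17 called in limma, 5 higher and 0 lower at an unadjusted p under the threshold, and a median of 0.00.

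**Figure D4:**
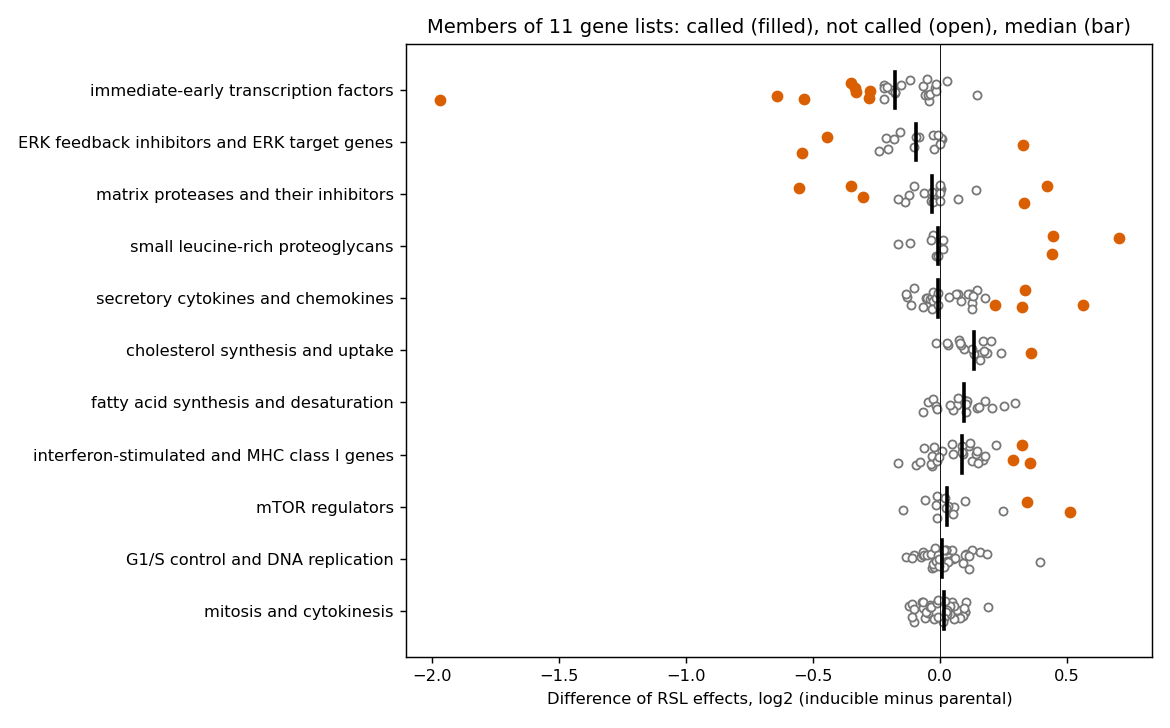
Difference of the RSL effects on the log2 scale (x axis, inducible minus parental) for every measured gene of 11 lists, with called genes filled, the others open and a bar at the list's median. The immediate-early genes lie mostly left of 0 (median −0.18). Cholesterol synthesis genes lie mostly right of it (median 0.13) with 1 filled point, and the cell division lists hold no filled point.

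Of 14 mTOR regulators, 2 were called higher and 0 lower, with a median of 0.03. Deptor, which binds and inhibits mTOR, read 7.86, 7.93 and 7.88 on the parental DMSO arrays, 7.78, 7.81 and 7.85 on the parental RSL arrays, 8.41, 8.42 and 8.41 on the inducible DMSO arrays and 8.85, 8.92 and 8.76 on the inducible RSL arrays. Neither pair overlapped, with the lines moving apart. The difference was 0.51 (standard error 0.06, adjusted p = 0.000262). Ddit4, a stress-induced inhibitor of mTOR complex 1, differed by 0.34 (adjusted p = 0.0175), a call that ended without any 1 of 4 arrays (adjusted p of up to 0.0642). Sesn1, a sestrin that restrains the same complex, and Ephx1 were the 2 called of 25 direct p53 target genes, whose median was 0.00. Sesn1 differed by 0.37 and lost its call without any 1 of 9 arrays, with an adjusted p of up to 0.144.

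Igfbp7, a secreted protein of the insulin-like growth factor binding family, rose in the inducible cells by 0.67 (adjusted p = 2.91e-06), the largest such rise among the 109. It read 7.95, 7.97 and 7.99 on the parental DMSO arrays, 8.16, 8.10 and 8.33 on the parental RSL arrays, 8.14, 8.07 and 8.08 on the inducible DMSO arrays and 8.74, 8.81 and 8.75 on the inducible RSL arrays. Both lines moved upwards without overlap, the parental line by 0.23 (adjusted p = 0.172), so the difference of 0.45 (standard error 0.07, adjusted p = 0.00414) is one of size and not of direction. No other of 17 genes of this family was called. Id4, an inhibitor of helix-loop-helix factors (0.40, adjusted p = 0.00181), and Tgfb3, a TGF-beta ligand (0.24, adjusted p = 0.0405), were the 2 called of 29 genes of TGF-beta and BMP signalling, whose median was −0.03. The Tgfb3 call ended without any 1 of 9 arrays, with an adjusted p of up to 0.126. Tmem119, a membrane protein of bone-forming cells, differed by 0.46 (adjusted p = 0.00320). Eno3, an enolase, was the 1 called of 22 genes of glycolysis and the hypoxia response (0.37, adjusted p = 0.00870), and Hsph1, a chaperone, the 1 called of 11 heat shock proteins (0.28, adjusted p = 0.0312), with overlapping inducible groups and a call that ended without any 1 of 9 arrays (adjusted p of up to 0.102). Tpm1, an actin-binding tropomyosin, was the 1 called of 19 contractile and SRF target genes (0.29, adjusted p = 0.00900). Of these 19, 10 lay above 0 and 9 below, with a median of 0.02. At an unadjusted p under the threshold, 3 were higher and 4 lower.

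Among the other genes with large negative differences, Nipal1, a magnesium transporter, changed in the inducible cells and read close to even in the parental cells. It read 7.53, 7.61 and 7.64 on the parental DMSO arrays, 7.61, 7.57 and 7.57 on the parental RSL arrays, 8.06, 8.03 and 7.98 on the inducible DMSO arrays and 7.56, 7.59 and 7.53 on the inducible RSL arrays. Only the inducible DMSO arrays stood apart. Nipal1 fell by 0.47 in the inducible cells (adjusted p = 4.80e-06), its parental change was −0.01 (adjusted p = 0.938), and the difference was −0.45 (standard error 0.05, adjusted p = 0.000266). Krt76, a keratin, differed by −0.42 (adjusted p = 0.00287), and Ptges, which makes prostaglandin E2, by −0.33 (adjusted p = 0.00146). Kctd4 (−0.35) and Dynap (−0.34) were called too, but their calls ended without any 1 of 4 and of 10 arrays, with adjusted p-values of up to 0.0661 and 0.133.

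**Figure D5:**
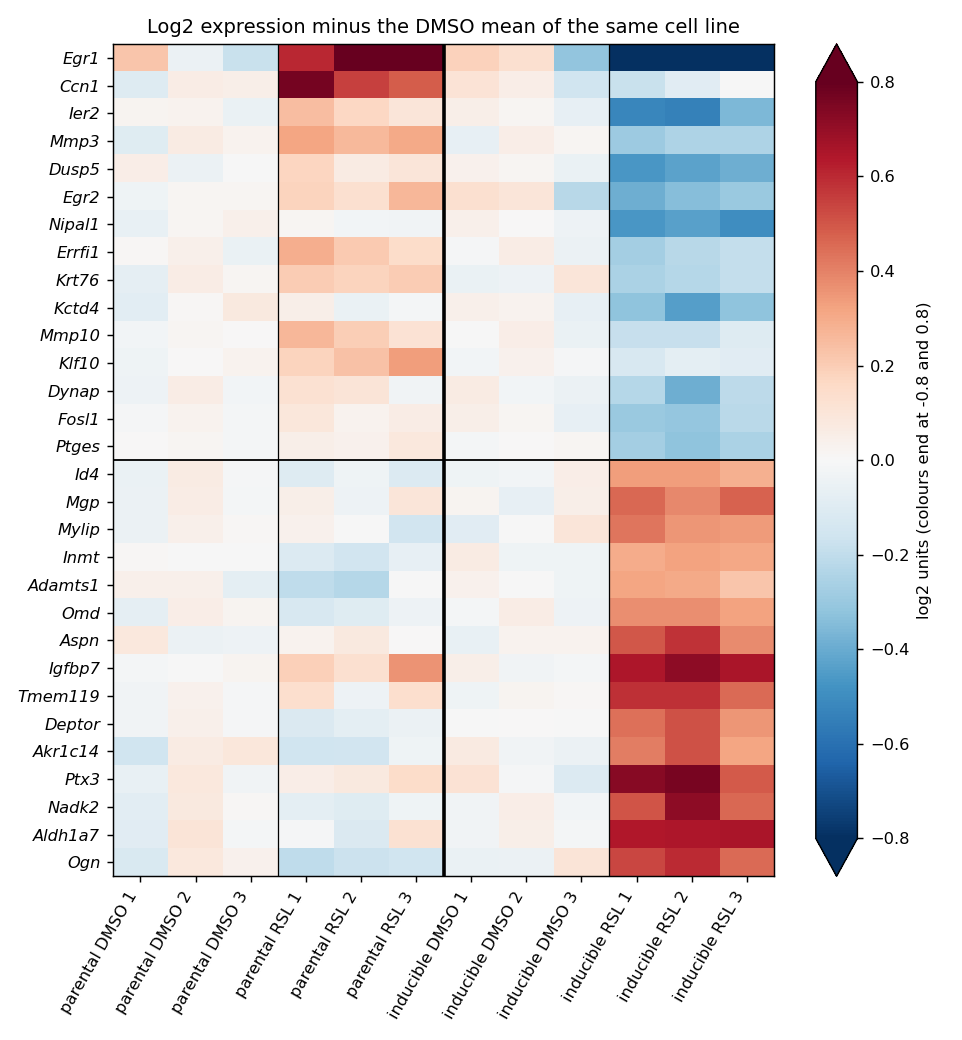
Log2 expression on each of the 12 arrays (columns) minus the DMSO mean of the same cell line, for the 15 genes with the most negative and the 15 with the most positive called differences (rows), in red above and in blue below that mean, with colours ending at −0.8 and 0.8. Egr1, Ccn1, Mmp3, Klf10 and Errfi1 are red on the parental RSL arrays and on the inducible RSL arrays blue, only palely so in Ccn1 (mean −0.09) and Klf10 (−0.10), whereas the lower 15 genes are red on the inducible RSL arrays and mostly pale on the parental ones.

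The other 57 genes with a symbol were chosen for naming after their values were seen, and none differed by more than 0.36 in size. Of these, 43 lost the call without at least 1 array, with an adjusted p of up to 0.151. Beside Ier5, Zfp36, Jun and Plaur, the lower ones include genes of cell adhesion and the cytoskeleton: the focal adhesion protein gene Pxn (−0.22), the actin crosslinker gene Flnc (−0.29), Myadm (−0.26), Arhgap22 (−0.25), Epb41l4a (−0.24) and Ppp1r18 (−0.23). Tln2, a talin gene next to Tpm1 on chromosome 9, differed by 0.21. Genes of receptors, ligands and other surface or secreted proteins that were lower are Axl (−0.25), Tnfrsf12a (−0.30), the cytokine gene Clcf1 (−0.24), Sema7a (−0.29), Vasn (−0.23), Msln (−0.26), Adgrl1 (−0.24), Oaf (−0.28), Evi2a (−0.31) and the potassium channel gene Kcnn4 (−0.28). The chromatin protein gene Hmga2 fell by 0.30 in the inducible cells with a parental change of −0.00. Mcl1, a survival protein of the Bcl-2 family, differed by −0.22, Ndrg1 by −0.26, Ercc1, a DNA repair nuclease subunit, by −0.21, Flot1, of membrane rafts, by −0.30, and Niban2 by −0.32. Fam214b, Cdr2l, Cnst and Spef2 lay between −0.25 and −0.23, and Spef2 read below the first quartile of the arrays in both lines.

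Among the higher ones outside the naming rule, the sterol, lipid and retinoid genes Erg28 (0.26), Tlcd1 (0.25), Hacd4 (0.31) and Rdh11 (0.26) and the immune genes Ifi30 (0.25), Lgals3bp (0.23) and Vcam1 (0.26) were called. So were Pdcd4, an inhibitor of translation (0.33), Pik3r3, a regulatory subunit of PI3 kinase (0.26), Nuak1, a kinase related to AMPK (0.34), the transcription factor gene Foxc1 (0.33), the neuropeptide gene Vip (0.33), the glutamate transporter gene Slc1a3 (0.36), the ion cotransporter gene Slc12a2 (0.26), Emb (0.29), Capn6 (0.27), the metallothionein gene Mt1 (0.36), and Knop1, Ankrd44, Wdr6 and R3hcc1, between 0.23 and 0.31. Nuf2, of the kinetochore (0.29), and Gxylt2 (0.31) passed for the difference with inducible changes of 0.10 and 0.11 and parental changes of −0.18 and −0.20, none of which passed alone. The 3 probe sets without a symbol were all lower, between −0.32 and −0.25.

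Of 36 genes of G1/S control and DNA replication, none passed in limma, 3 higher and 1 lower at an unadjusted p under the threshold, and the median was 0.01. Ccne2, cyclin E2, was nearest (0.40, standard error 0.09, adjusted p = 0.0714). Of 39 genes of mitosis and cytokinesis, none passed, 1 higher and 3 lower without correction, with a median of 0.02. None of 23 genes of the unfolded protein and amino acid stress response passed (1 higher and 2 lower without correction, median −0.03), and none of 25 genes of Wnt signalling did (6 higher and 0 lower without correction, median 0.00), where Wnt5a, a Wnt ligand, had changes of −0.26 in parental and −0.01 in inducible cells (adjusted p for the difference 0.0957).

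The RSL and DMSO labels were also permuted within each cell line over all 400 arrangements, for which the smallest two-sided p is 0.005. In this exact permutation test, not adjusted, 40 of the called genes reached that value, among them Egr1, Ier2, Mmp3, Dusp5, Ogn and Deptor. The p was under 0.05 for 82 of the called genes. Among those not under it were Aldh1a7 (0.05), Nipal1 (0.065), Aspn (0.075), Mgp (0.075), Tmem119 (0.085) and Ptx3 (0.09). The p of Igfbp7, which moved the same way in both lines, was the highest at 0.125. This permutation takes RSL to have no effect in either line, so it is no test of equal effects. The called genes were chosen by the same contrast on the same arrays, so the p-values describe them and are no separate support.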

How the data were processed

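Parental NIH 3T3 and 3T3-ind-IER2 #11 cells were compared on Affymetrix Mm430_2.0 arrays, 3 per group, and the sample titles gave the groups. The deposited log2 values form 1 table, for which the authors had regrouped the probes by Entrez gene with a custom CDF, corrected the background by RMA and normalized the arrays by quantiles. The log base was inferred from the range of the values. The labels name Trizol for the RNA and the methods another reagent. Of 16539 probe sets, 64 hybridization controls were left out and 16475 were tested without a filter. Of these, 15780 have 1 gene symbol in the annotation given for the array, 0 have several and 695 have none. The table holds 0 columns of other samples.

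From the deposited log2 values a model with 4 group means and no block was fitted to the 12 arrays in limma 3.58.1 (R 4.3.3), with 8 residual degrees of freedom. The contrast was the RSL effect in inducible cells minus that in parental cells, and the effect in each line came from the same fit. P-values were adjusted by Benjamini-Hochberg over all probe sets and called at 0.05. All adjusted p-values are limma's. The arrays give no count of molecules, so their number limits the precision. The labels call the replicates biological without saying whether they were separate cultures, and p-values then reflect only how far these arrays lay apart.

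The genes, the 28 pathway lists and the 4 marker lists were chosen with earlier results of these data known. Named by rule were Ier2, the 15 called genes with the largest difference in each direction, and up to 4 called members of each list, or up to 2 with the smallest p where none was called. The other genes were picked with their values in view. The alternatives tried comprised blocking on replicate number, leaving out the lowest 40 percent by mean, an intensity trend, array weights, subtraction of array medians, repeated quantile normalization, unmoderated tests, the methods' one-way analysis, the 6 arrays of each line alone, and leaving out each array. A variance per cell line and leaving out both arrays of lowest weight were added after seeing the data. On simulated data with the 16475 probe sets, the test of the difference recovered 26% of changes of 0.2 log2 units, 76% at 0.3 and 100% at 0.5 and 1, with 6 false calls among 157. The simulated noise was independent and had the same spread on every array. The measured arrays were less even, with weights from 0.449 to 2.745, so these shares may not hold for them.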

Additional observations from a re-analysis of the deposited data

Results flagged for a closer look

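The RSL effect differed between the cell lines, by the test of the difference itself, for 109 probe sets. The report names 49 of them by its rule, and their log2 differences (inducible effect minus parental effect) are gathered here.

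The genes with a lower effect in the inducible cells were Egr1 −1.97, Ccn1 −0.69, Ier2 −0.64, Mmp3 −0.56, Dusp5 −0.54, Egr2 −0.53, Nipal1 −0.45, Errfi1 −0.44, Krt76 −0.42, Kctd4 −0.35, Mmp10 −0.35, Klf10 −0.35, Dynap −0.34, Fosl1 −0.33, Ptges −0.33 and Hbegf −0.29.

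The genes with a higher effect that also rank among the 15 largest were Ogn 0.70, Aldh1a7 0.65, Nadk2 0.63, Ptx3 0.57, Akr1c14 0.53, Deptor 0.51, Tmem119 0.46, Aspn 0.45, Igfbp7 0.45, Omd 0.44, Mylip 0.42, Inmt 0.42, Adamts1 0.42, Id4 0.40 and Mgp 0.40. The remaining ones were named as members of gene lists, and they were Sesn1 0.37, Eno3 0.37, Gbp2 0.36, Dhcr7 0.36, Ddit4 0.34, Ccl8 0.33, Tapbp 0.33, Dusp1 0.33, Adamts5 0.33, Il6 0.33, Dhrs3 0.31, Irgm1 0.29, Tpm1 0.29, Ephx1 0.28, Hsph1 0.28, Tgfb3 0.24, Gstm1 0.23 and Ccl9 0.22.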

How the results depend on the processing

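All 109 genes kept their direction under every alternative that tested them. The block, the filter, the trend, unmoderated tests and a variance per cell line leave the difference itself unchanged, so no direction could turn there. The 109 were also chosen for their difference on these arrays, so a kept direction is no separate support. The replicate numbers did not pair the arrays: deviations of same-numbered arrays correlated between −0.296 and 0.219, above 0.1 in 4 of 18 pairs, and 2 of 12 arrays correlated best with their own number. With a replicate block 76 probe sets were called, 45 higher and 31 lower, 75 of them among the 109. For the difference, array weights gave 375 calls (195 higher, 180 lower), unmoderated tests 31 (16 and 15, with 1473 at a nominal p), a variance per cell line 170 (92 and 78), and leaving out both arrays of lowest weight 289 (194 and 95), the last 2 chosen after seeing the data. Leaving out 1 array gave 56 to 144 calls, 34 to 88 higher and 20 to 56 lower. The filter, the trend, subtracted medians and repeated quantile normalization gave 136, 126, 98 and 151.

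For the RSL effect in inducible cells, 418 in the model reported, array weights gave 736, the methods' one-way analysis 1 after Benjamini-Hochberg and 1913 at a nominal p, and leaving out 1 array 204 to 457. For the parental effect, 5 in the model reported, the filter gave 8, the trend 10, array weights 106, repeated quantile normalization 8, unmoderated tests 0, leaving out both arrays of lowest weight 114, the 6 parental arrays alone 2, the one-way analysis 0 after Benjamini-Hochberg and 1226 at a nominal p, and leaving out 1 array 1 to 12. With 3 arrays per group, differences near 0.2 were mostly below what the test recovers in simulated data with the same spread on every array. Of the 109 genes, 59 lost the call without at least 1 array. The cause of the changes in counts was not tested.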

Other observations

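Circadian clock genes were looked up after their values were seen, so no test is given for the group. Of 18 measured, Nr1d2 and Dbp were called higher and Arntl lower, and the median difference was 0.03. Nr1d2, which encodes the repressor REV-ERB beta, read 8.28, 8.17 and 8.24 on the parental DMSO arrays, 8.18, 8.15 and 8.15 on the parental RSL arrays, 7.89, 7.86 and 7.90 on the inducible DMSO arrays and 8.16, 8.15 and 8.18 on the inducible RSL arrays. The inducible DMSO arrays stood below the other 3 groups, and the difference was 0.36 (standard error 0.05, adjusted p = 0.00138 in limma). Dbp, a clock output factor, differed by 0.27 (adjusted p = 0.0233), a call that ended without any 1 of 6 arrays (adjusted p of up to 0.0960). Arntl, which encodes BMAL1, the activator that REV-ERB proteins repress, differed by −0.24 (adjusted p = 0.0405), with inducible arrays at 7.95, 7.89 and 7.97 under DMSO and 7.76, 7.75 and 7.78 under RSL and parental arrays from 7.62 to 7.79. Its call ended without any 1 of 10 arrays (adjusted p of up to 0.125). In all of Nr1d2, Dbp and Arntl the inducible groups did not overlap and the parental groups did. Per1 (0.01) and Bhlhe40 (0.03) did not pass.

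Of the metallothionein genes, looked up in the same way, Mt1 was called (0.36, adjusted p = 0.0108) and Mt2 was not (0.23, adjusted p = 0.351).

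The distance between the cell lines widened from DMSO to RSL in 41 of the 59 genes with a higher effect and in 25 of the 50 with a lower effect, against 9284 of all 16475 probe sets. Egr1 was among those in which it narrowed. The difference tested is itself the change in this distance, taken with its sign. The genes were chosen by that difference, so these counts describe them and are no separate support.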
